A study of Mus musculus with 10 samples.

Results

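A set of 8 enzymes that break down tryptophan through kynurenine were followed in mouse livers with and without the glucagon receptor gene Gcgr. The enzymes were Tdo2, Afmid, Kmo, Kynu, Haao, Acmsd, Qprt and Aadat, chosen by name, out of 27652 gene names on the arrays and 18910 genes tested. Of the 8, 7 were found through the gene name column of the array files, with 10 probes. Haao was found only through the description of its probe, because the name column there holds a transcript identifier, so its identity rests on that description. Of the 11 probes in all, 10 were bright enough to be tested, and all 8 enzymes were represented. The probe that failed was the second Kynu probe, which was well above background in 1 of 5 wild-type (WT) livers and in none of the knockout (KO) livers.

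RNA from 10 livers was measured on 2-colour Agilent arrays. The 5 WT livers came from 3 males and 2 females with the genotype wt/wt, and the 5 KO livers came from 2 males and 3 females with the genotype GCGR ko/ko. The labels give no age, strain, diet or time of collection, and do not describe the deleted allele or say that it is restricted to one tissue. Liver RNA was labelled with Cy5 and read against a commercial universal mouse reference RNA in Cy3, and the values below are log2 of that ratio. For bright probes a value of 0 is the level in the reference and each step of 1 is close to a doubling. An offset of 50 units was added to both channels, which pulls the ratios of dim probes towards 0. At such probes differences can be understated, and a value near 0 does not show a level equal to the reference. Ratios were compared between livers, never between probes, because probes differ in brightness.

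Tryptophan is consumed in liver mainly by opening its indole ring and passing the product down the kynurenine route. Tdo2, a heme enzyme of hepatocytes, takes the first and rate-limiting step. Afmid removes the formyl group to give kynurenine, Kmo hydroxylates kynurenine, Kynu cleaves the product and Haao opens the ring again. The unstable product of Haao either closes by itself to quinolinate, which Qprt turns towards NAD, or is diverted by Acmsd towards complete oxidation. Aadat stands on a side branch and turns kynurenine into kynurenic acid by transamination. Glucagon acts on liver through cyclic AMP and the factor CREB, and with glucocorticoids it is known as a hormone that raises the breakdown of amino acids.

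Because glucagon signals through CREB, the DNA just before the start of the genes was searched for the sites of that pathway. RefSeq (GRCm38.p6) gave the 250 bases before the start for the 6 enzymes searched, all but Kynu and Acmsd. Letters were searched on both strands for the full cyclic AMP response element TGACGTCA, its shorter core TGACG, which the full element contains, the glucocorticoid receptor core TGTTCT, and the core GTTAAT of the hepatocyte factor HNF1. The sequences of Tdo2 and of Haao are printed 5′ to 3′ on the strand of the gene, with matches in capitals. Tdo2 was the enzyme that passed for genotype in the main fit below, and Haao the only one of the 6 with a match.
Tdo2, chr3:81975729-81975978, minus strand: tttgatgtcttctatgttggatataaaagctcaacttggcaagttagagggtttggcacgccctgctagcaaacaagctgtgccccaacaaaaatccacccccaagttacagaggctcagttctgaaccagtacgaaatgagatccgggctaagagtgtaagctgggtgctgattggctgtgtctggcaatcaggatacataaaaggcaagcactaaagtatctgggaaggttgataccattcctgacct
Haao, chr17:83846791-83847040, minus strand: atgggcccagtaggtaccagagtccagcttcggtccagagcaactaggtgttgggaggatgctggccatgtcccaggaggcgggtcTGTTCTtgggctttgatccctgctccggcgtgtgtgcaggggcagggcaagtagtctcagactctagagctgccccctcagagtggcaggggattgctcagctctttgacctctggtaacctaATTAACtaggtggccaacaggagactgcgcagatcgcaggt
The full element was in 0 of the 6 windows, against 1.55% of all 32851 windows in the table. Its core was also in 0 of the 6, and in 17.8% of all windows. The glucocorticoid core was in the Haao window at 164 to 159 bases before the start, and in 16.1% of all windows. The HNF1 core lay on the opposite strand of Haao at 41 to 36 bases before the start, so that the printed strand shows its reverse complement, and in 6.43% of all windows. The Tdo2 window held none of the 4. These are matches of letters in a short window and no measure of binding.

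Arrays of slides 1 and 2 were brighter (median net Cy5 of 112 to 134) than those of slides 3 and 4 (58.7 to 78.9). The livers lay unevenly over the slides, with both WT females on slide 3 and the 3 KO females on slides 1 and 2, so within females genotype and slide cannot be told apart. Slide 2 held only KO 3 and KO 4, and slide 4 only WT 5. A fit with slide as a fixed block therefore takes the genotype difference from slides 1 and 3. Gcgr checked the labels, at 7.74 to 8.14 in WT and 0.28 to 0.36 in KO livers. Hepatocyte markers averaged 7.12 to 7.88 in WT and 7.45 to 7.60 in KO livers and 0 of 6 passed for genotype. Markers of sinusoidal endothelial cells averaged 3.06 to 3.59 in WT and 3.72 to 4.0 in KO livers without overlap, and 2 of 6 rose, where 5.97% of all genes passed for genotype. Lyve1 differed most (1.47), and the other endothelial markers lay between 0.09 and 0.52. Bile duct markers averaged -3.51 to -3.24 and -3.21 to -2.86, also without overlap, and 0 of 5 passed. Spp1 differed most (0.87), and the others lay between -0.004 and 0.36. Both averages thus lean on a single gene, and how often other lists separate the genotypes was not tested. Adipocyte markers averaged 1.1 to 1.78 in WT and 0.98 to 3.93 in KO livers, and 2 of 3, Cfd (-3.62) and Fabp4 (-0.59), were lower in females. Cfd was well above background in only 2 WT and 2 KO livers. Of the other marker lists, Kdr (0.43, endothelial) and Pdgfrb (0.42, stellate) were higher in females, where 11.6% of all genes passed for sex. Neutrophil markers averaged -0.04 to 0.49 in WT and 0.25 to 2.0 in KO livers, and 0 of 3 passed for genotype. Of 4 kidney tubule markers 1 fell, Umod (-0.30, adjusted p = 0.0424). Kupffer cell and macrophage markers averaged 3.04 to 3.98 in WT and 3.40 to 4.07 in KO livers, with 0 of 7 passing. The part of any of these cells in the results was not tested. In whole liver, fewer cells of a type and less RNA per cell cannot be told apart. Differences are from limma with genotype and sex in the model, with p-values adjusted over all genes tested by Benjamini-Hochberg, and a gene has risen or fallen where its adjusted p is under 0.05.

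In KO livers 1 of the 8 enzymes, Tdo2, fell and none rose. Over all genes, 5.97% passed for genotype and 3.07% passed as lower in KO, and 1 of 8 is not a result about the enzymes as a group. The difference was below 0 for 7 of the 8, with a median of -0.28, where all genes tested had a median of -0.003 and 50.7% of them lay below 0. The enzymes differed in size. Tdo2, Afmid, Kynu and Haao lay between -0.45 and -0.38, Aadat and Acmsd at -0.19 and -0.18, and Kmo and Qprt at -0.05 and 0.005. Those first 4 lay at or below the 3.57 percentile of all genes. The Acmsd probe was dim (net Cy5 of 30 to 103), so the offset pulls its difference towards 0, and the scanner's log ratio gave -0.66. No enzyme had all 5 KO livers below all 5 WT livers, a pattern that 3.08% of all genes showed.

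**Figure D1:**
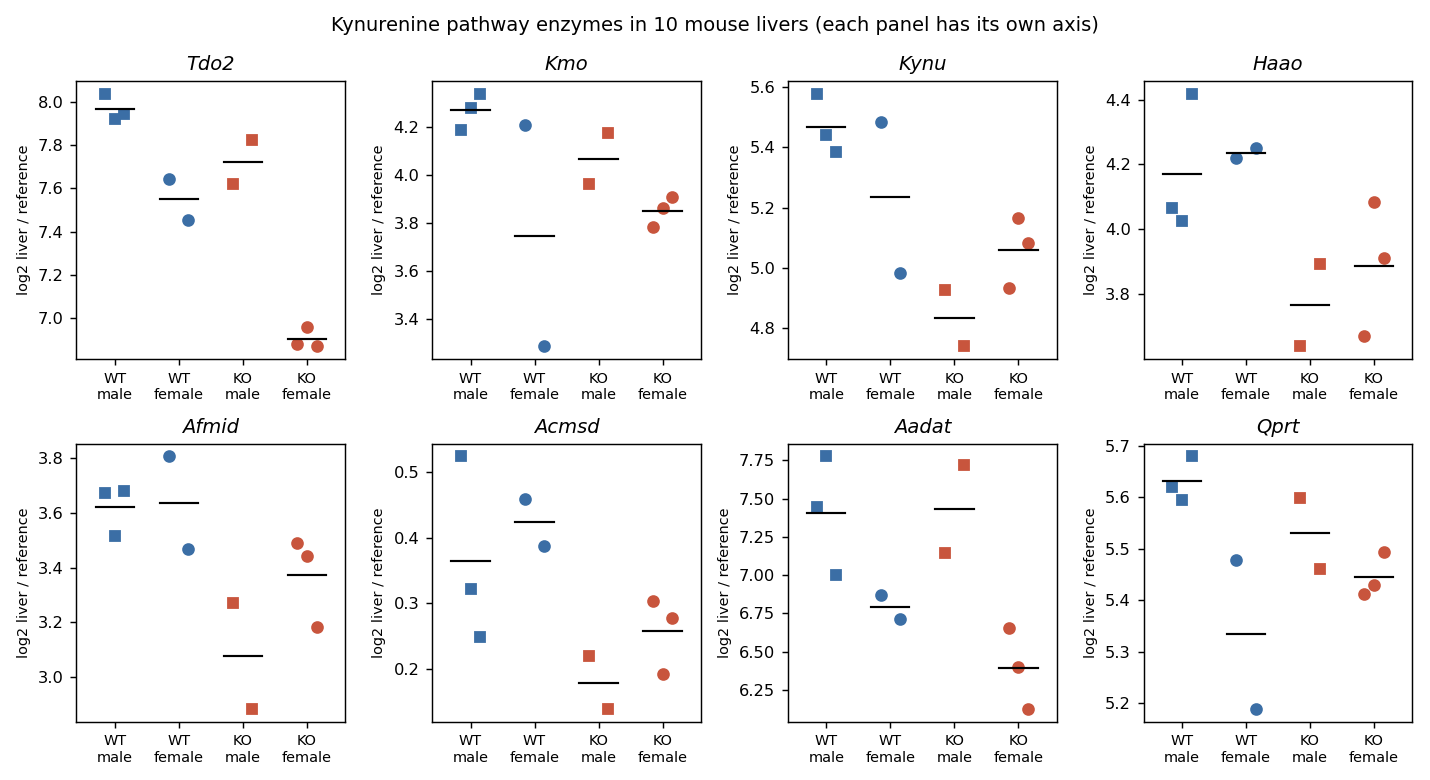
Log2 ratio of liver over reference (y axis, own scale in each panel) for the 8 enzymes in WT (blue) and KO (red) males (squares) and females (circles), 1 point per liver, with the mean of each group as a line. The 3 KO females hold the lowest Tdo2 values, 6.87 to 6.96, and the single low WT female in the Kmo panel is WT 4 at 3.29.

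Tdo2 was measured by 2 probes, placed by the array files at chr3:82068883-82071893 and chr3:82073120-82074397 on the minus strand (build mm7, of which no annotation was used). At the brighter probe the log2 ratios were 8.04, 7.92, 7.64, 7.46 and 7.94 from WT 1 to WT 5, and 7.62, 6.88, 6.96, 6.87 and 7.82 from KO 1 to KO 5. The 3 KO females were lower than every other liver, while the 2 KO males lay below the 3 WT males and among or above the 2 WT females. The means were 7.80 ± 0.24 in WT and 7.23 ± 0.46 in KO livers (SD, n = 5 each). The fitted difference was -0.45 (SE 0.09, 95% interval -0.65 to -0.24, adjusted p = 0.0164), or 1.36-fold lower in KO livers.

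Tdo2 also differed between the sexes. It was lower in females by 0.62 on the log2 scale (SE 0.09, adjusted p = 0.00107), or 1.54-fold, from 7.87 ± 0.16 in males to 7.16 ± 0.36 in females (SD, n = 5 each). That call was lost with the scanner's log ratio (-0.27, adjusted p = 0.109), with outlier spots removed after the background fit (-0.29, 0.758) and with the replicate number as a block (-0.59, 0.524). The means ran from 7.97 ± 0.06 in WT males (SD, n = 3) through 7.72 ± 0.15 in KO males (n = 2) and 7.55 ± 0.13 in WT females (n = 2) to 6.90 ± 0.05 in KO females (n = 3). Within females the KO difference was -0.65 (SE 0.10, adjusted p = 0.00747), and within males it was -0.25 (SE 0.10, adjusted p = 0.244). The difference between those effects was -0.40 (SE 0.14) and did not pass (adjusted p = 0.322).

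The second Tdo2 probe read 6.87, 6.80, 6.61, 6.95 and 6.66 from WT 1 to WT 5, and 6.54, 5.70, 5.61, 5.81 and 6.91 from KO 1 to KO 5. Again the 3 KO females were the lowest, and KO 5, a male, lay within the WT range. With every probe fitted on its own, this probe gave -0.56 for KO (SE 0.18, adjusted p = 0.0954) and -0.51 for females (SE 0.18, adjusted p = 0.0981). Neither passed. Its WT females and WT males had the same mean of 6.78, and its difference of the KO effect between the sexes was -1.02 (SE 0.20, adjusted p = 0.115).

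**Figure D2:**
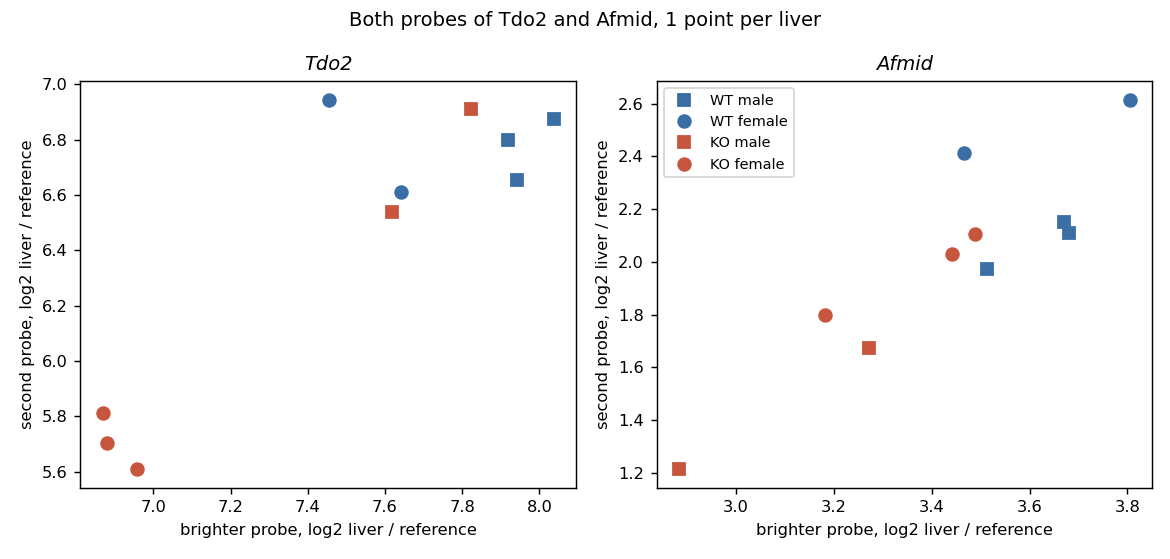
Log2 ratio of liver over reference at the brighter probe (x axis) and at the second probe (y axis) of Tdo2 and Afmid, 1 point per liver, WT blue, KO red, males as squares and females as circles. The KO females stand apart at both Tdo2 probes, and KO 5, a male, is lowest at both Afmid probes, at 2.88 and 1.21.

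Slides and single livers bear on the Tdo2 call. With slide as a fixed block the difference was -0.40 (adjusted p = 0.0251). On slide 1, which held 2 WT males, 1 KO male and 1 KO female, it was -0.73, and between the males of that slide it was -0.36. On slide 3, which set 1 KO male against 2 WT females, it was 0.28, and that value also holds the sex difference. Without KO 1 the adjusted p was 0.0513 and without WT 3 it was 0.0551. The call was also lost without a sex term (-0.57, adjusted p = 0.166), with median centring (-0.35, 0.273), with the scanner's own log ratio (-0.19, 0.282), with outlier spots removed after the background fit (-0.14, 0.925) and with the replicate number as a block (-0.45, 0.106). The reference signal at this probe was low, at 30.9 to 106 net Cy3 units against 8910 to 37200 Cy5 units in liver, and the Cy5 channel alone gave -0.79.

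Afmid, the formamidase of the second step, had 2 probes, at chr11:117948461-117948520 and chr11:117945633-117945692 (plus strand). At the brighter probe the log2 ratios were 3.67, 3.51, 3.81, 3.47 and 3.68 from WT 1 to WT 5, and 3.27, 3.49, 3.44, 3.18 and 2.88 from KO 1 to KO 5. Of the KO livers, 4 lay below all WT livers, and KO 2 lay just above WT 4. The means were 3.63 ± 0.14 in WT and 3.25 ± 0.24 in KO livers (SD, n = 5 each), a difference of -0.40 (SE 0.11, 95% interval -0.65 to -0.16, adjusted p = 0.0547), which did not pass.

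The second Afmid probe read 2.15, 1.97, 2.62, 2.41 and 2.11 from WT 1 to WT 5, and 1.67, 2.11, 2.03, 1.80 and 1.21 from KO 1 to KO 5. With every probe fitted on its own, it passed as lower in KO livers (-0.59, SE 0.10, adjusted p = 0.00703, 1.5-fold) and as higher in females (0.49, SE 0.10, adjusted p = 0.00985). Within each sex the KO livers of this probe lay below the WT livers. At the brighter probe the KO difference was -0.54 in males (adjusted p = 0.0905) and -0.26 in females (adjusted p = 0.368). The mean of both probes passed (-0.49, adjusted p = 0.0188), as did the Cy5 channel alone (-0.62, adjusted p = 0.0236). With slide as a fixed block the brighter probe gave -0.40 (adjusted p = 0.0675), with -0.21 on slide 1 and -0.75 on slide 3.

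Kmo, the hydroxylase that acts on kynurenine (chr1:175626352-175626411, plus strand), read 4.18, 4.28, 4.21, 3.29 and 4.34 from WT 1 to WT 5, and 3.96, 3.78, 3.86, 3.90 and 4.17 from KO 1 to KO 5. The WT female WT 4 was lower than every other liver, and the other 4 WT livers were above all KO livers. The means were 4.06 ± 0.44 and 3.94 ± 0.15 (SD, n = 5 each), and the difference of -0.05 (SE 0.15, 95% interval -0.37 to 0.28, adjusted p = 0.895) did not pass. Without WT 4 it was -0.26 (adjusted p = 0.0911), also short of the threshold.

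Kynu, the kynureninase (chr2:43688986-43689045, plus strand), read 5.58, 5.44, 5.48, 4.98 and 5.38 from WT 1 to WT 5, and 4.93, 4.93, 5.17, 5.08 and 4.74 from KO 1 to KO 5. Of the WT livers, 4 were above all KO livers, and WT 4 was again the lowest of its group. The means were 5.37 ± 0.23 in WT and 4.97 ± 0.16 in KO livers (SD, n = 5 each), and the difference was -0.40 (SE 0.12, 95% interval -0.67 to -0.14, adjusted p = 0.0769).

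For Kynu the call turned on the slide and on WT 4. It passed with slide as a fixed block (-0.55, adjusted p = 0.0317), where slide 1 gave -0.58 and slide 3 gave -0.49, and without WT 4 (-0.55, adjusted p = 0.00827). In males the difference was -0.64 (SE 0.15, adjusted p = 0.0506) and in females -0.17 (SE 0.15, adjusted p = 0.561). Their contrast of 0.46 did not pass (adjusted p = 0.392). The reference channel was well above background at this probe on 0 of the 10 arrays, and the Cy5 channel alone gave -0.41 (adjusted p = 0.0331).

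Haao, the dioxygenase that forms the precursor of quinolinate (chr17:82125656-82125715, minus strand), read 4.07, 4.03, 4.22, 4.25 and 4.42 from WT 1 to WT 5, and 3.64, 3.67, 4.08, 3.91 and 3.89 from KO 1 to KO 5. All KO livers except KO 3 lay below all WT livers. The means were 4.20 ± 0.16 in WT and 3.84 ± 0.19 in KO livers (SD, n = 5 each), a difference of -0.38 (SE 0.10, 95% interval -0.60 to -0.15, adjusted p = 0.0586), short of the threshold. It passed with slide as a fixed block (-0.37, adjusted p = 0.0243), with -0.39 on slide 1 and -0.34 on slide 3, and without KO 3 (adjusted p = 0.0462). The effect was nearly the same in the sexes, at -0.35 in females and -0.40 in males.

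At the fork after Haao, the signal of Acmsd, the decarboxylase that leads away from NAD, was close to background. It was well above background in 4 of 5 WT and 3 of 5 KO livers. Its probe (coordinates chr1:127625331-127628553, plus strand) read 0.52, 0.32, 0.46, 0.39 and 0.25 from WT 1 to WT 5, and 0.22, 0.30, 0.19, 0.28 and 0.14 from KO 1 to KO 5. The means were 0.39 ± 0.11 and 0.23 ± 0.07 (SD, n = 5 each). The difference of -0.18 (SE 0.07, adjusted p = 0.176) did not pass. With the scanner's log ratio it was -0.66 (adjusted p = 0.0353).

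Qprt, which carries quinolinate into NAD synthesis (chr7:123204519-123204578, minus strand), differed between the genotypes by less than the spread between livers. It read 5.62, 5.59, 5.48, 5.19 and 5.68 from WT 1 to WT 5, and 5.60, 5.41, 5.43, 5.49 and 5.46 from KO 1 to KO 5, with KO values inside the WT range. The means were 5.51 ± 0.20 and 5.48 ± 0.07 (SD, n = 5 each). The difference was 0.005 with a 95% interval of -0.17 to 0.18 (adjusted p = 0.983).

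Aadat, the aminotransferase of the kynurenic acid branch (chr8:58937032-58937091, plus strand), differed by sex, and its genotype difference did not pass. It read 7.45, 7.78, 6.87, 6.71 and 7.0 from WT 1 to WT 5, and 7.14, 6.66, 6.40, 6.12 and 7.72 from KO 1 to KO 5. Every male, at 7.0 to 7.78, was above every female, at 6.12 to 6.87. Aadat was lower in females by 0.83 on the log2 scale (SE 0.17, 95% interval -1.21 to -0.45, adjusted p = 0.00947), or 1.78-fold, and the call was lost without both male KO livers (-0.62, adjusted p = 0.116), with outlier spots removed after the background fit (-0.48, 0.695) and with the replicate number as a block (-0.96, 0.601). For genotype the difference was -0.19 (SE 0.17, 95% interval -0.57 to 0.19, adjusted p = 0.599), with -0.71 on slide 1 and 0.93 on slide 3, where the KO liver is male and the WT livers are female.

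**Figure D3:**
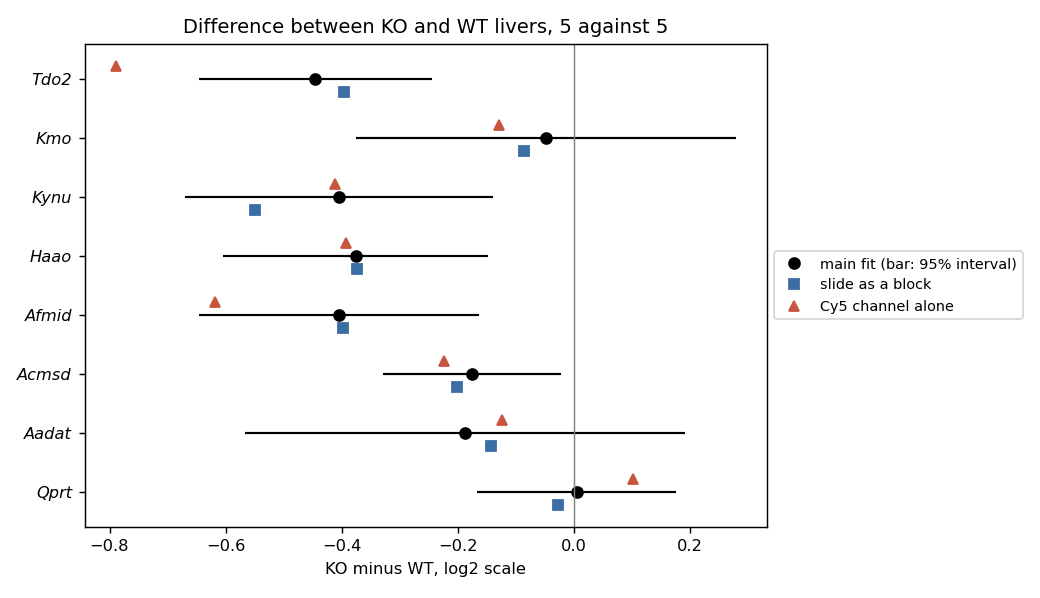
Difference between KO and WT livers on the log2 scale (x axis) for each enzyme. Black points are the fit of all 10 livers with genotype and sex with 95% intervals, blue squares the fit with slide as a fixed block, and red triangles the Cy5 channel alone. The blue squares draw the difference from slides 1 and 3, because slides 2 and 4 held 1 genotype each. Tdo2, Afmid, Kynu and Haao lie between -0.45 and -0.38 in the first fit, and Tdo2 reaches -0.79 with Cy5 alone.

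With slide as a random block 4 enzymes fell: Tdo2 (-0.41, adjusted p = 0.00859), Kynu (-0.46, 0.0257), Haao (-0.37, 0.0216) and Afmid (-0.42, 0.0249). Of all genes, 8.29% passed in that fit. With the fixed block 3 enzymes fell, since Afmid missed the threshold, and 6.38% of all genes passed. The count of enzymes went down as well as up. It was 0 with outlier spots removed after the background fit (1.8% of all genes), with median centring (1.49%), without a sex term (3.28%), with the replicate number as a block (1.61%), without KO 1 (3.17%) and without WT 3 (3.14%).

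By sex, 2 of the 8 enzymes, Tdo2 and Aadat, passed, both lower in females. Over all genes, 11.6% passed for sex and 6.59% passed as lower in females. Kmo (-0.37, adjusted p = 0.146) and Qprt (-0.19, adjusted p = 0.152) had lower means in females without passing. Both rested partly on WT 4, without which they were -0.16 and -0.11, and without WT 3 Kmo passed (-0.51, adjusted p = 0.0497). Kynu, Haao, Afmid and Acmsd lay between -0.003 and 0.15. The second Afmid probe, higher in females, was the one probe whose sex difference passed in that direction.

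None of the 8 enzymes passed the test that the KO effect differs between the sexes, and 0.0317% of all genes did, or 6 genes. Unadjusted p was under 0.05 for 2 enzymes, Tdo2 and Kynu, and for 12.5% of all genes. The contrast was -0.40 for Tdo2 and 0.46 for Kynu, and neither size held across settings. With slide as a fixed block they were -0.10 and 0.10. KO 2 was then the only KO female that counted, so that fit cannot decide whether the contrast holds. The Tdo2 contrast was -0.19 with median centring and -0.88 with the Cy5 channel alone, and stayed below 0 in all 22 alternatives. The Kynu contrast was 0.21 without WT 4, and turned to -0.21 with the scanner's log ratio and -0.19 with outlier spots removed after the background fit. Within females 1 enzyme, Tdo2, passed, against 4.45% of all genes. Within males none passed, against 2.36% of all genes, and 4 of 8 had an unadjusted p under 0.05, as did 17% of all genes.

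**Figure D4:**
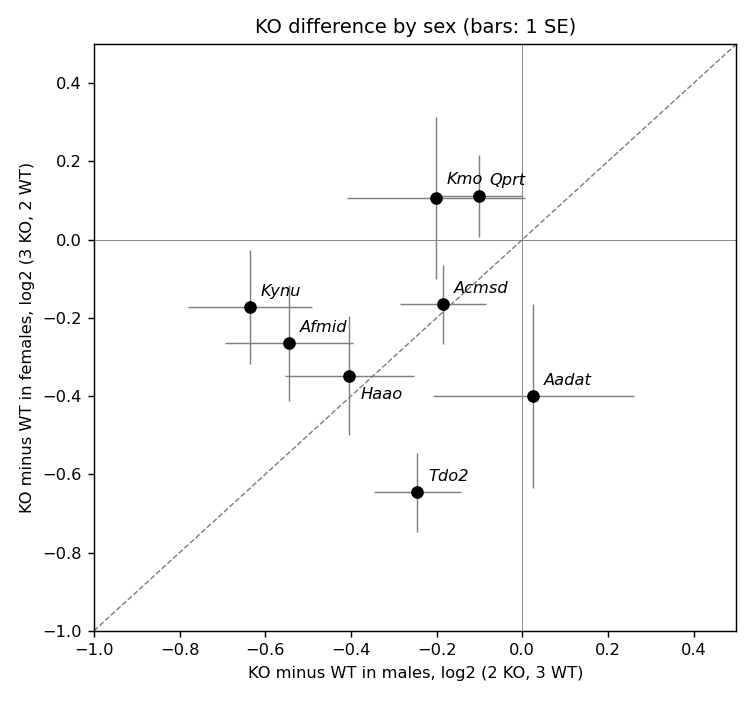
KO minus WT on the log2 scale in males (x axis, 2 KO and 3 WT livers) and in females (y axis, 3 KO and 2 WT livers) for each enzyme, with bars of 1 SE and the line of equal effects dashed. Tdo2 lies below the line (-0.25 in males, -0.65 in females) and Kynu above it (-0.64 in males, -0.17 in females).

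The spread between livers is given here as a description, with no test. After the means of the 4 groups of genotype and sex were taken out, the SD over livers was 0.09 for Tdo2 and Acmsd and 0.10 for Qprt. It was 0.18 for Kynu and Afmid, 0.19 for Haao, 0.28 for Kmo and 0.32 for Aadat, beside a median of 0.13 over all genes with a value in every liver. The Acmsd value comes from a signal near background, and the Kmo value includes the low liver WT 4. Over the 28 pairs of enzymes, the correlation of these residuals over 10 livers was above 0 in 21, with a median of 0.18. It ran from -0.69 for Haao with Acmsd to 0.80 for Kynu with Qprt. Kmo, Kynu and Qprt, which share the low liver WT 4, correlated at 0.69 to 0.80, and the livers share slides and reference RNA.

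Of the genes whose residuals most resembled each enzyme, Pcbd1 correlated with Qprt at 0.997, Tob1 with Kynu at 0.996 and Rnf185 with Haao at 0.992. For Kmo the nearest were Fbxo36 (0.988) and Slc46a1 (0.987), and for Tdo2 a transcript named TC1505839 (0.976) and Apol10a (0.974). For Afmid they were Strc (0.973) and LOC626832 (0.972), for Acmsd Myoz2 (0.983) and AK029415 (0.965), and for Aadat Klhl18 and Pim1 (0.974 each). The second nearest were Cep135 for Qprt (0.986), NAP057120-1 for Kynu (0.985) and Ezh1 for Haao (0.979). These were the highest and second highest of the 18843 genes with a value in every liver, so values of this size describe a search. With the means of 4 groups taken out, the residuals of the 10 livers are also not independent of one another. They are given as a description only.

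Around the 8 enzymes, 46 further genes of tryptophan, kynurenine and NAD metabolism are reported here, of which 41 were tested. Of these 1 rose and 5 fell, where 5.97% of all genes passed for genotype, and their median difference was -0.04. The lists were chosen with earlier results of these data known, so the count cannot be read as an excess over that share. The changed genes lay in NAD metabolism, transport and other uses of tryptophan.

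Among enzymes that also consume tryptophan or its products, 1 of 9 tested rose and 1 fell, where 5.97% of all genes passed for genotype. Ido2, a second dioxygenase that opens the tryptophan ring, read 6.36, 6.46, 6.22, 6.07 and 6.45 from WT 1 to WT 5, and 6.04, 5.72, 6.11, 5.79 and 5.85 from KO 1 to KO 5, with only WT 4 and KO 3 overlapping. It fell by 0.37 (SE 0.09, adjusted p = 0.037), while its other probe was at 0.02. The Ido2 call was lost in 8 of the 10 fits that leave out 1 liver (KO 1, 2, 4 or 5, or WT 1, 2, 3 or 5; adjusted p up to 0.101). Maoa, the monoamine oxidase that degrades serotonin, went from -1.55 ± 0.43 to -0.88 ± 0.25 (SD, n = 5 each). It rose by 0.57 (SE 0.13, adjusted p = 0.0219), a call that held in 18 of 24 alternatives. Among the fits that lost it were those without KO 1 (0.0803), WT 4 (0.0566) or a sex term (0.0932). Others were outlier spots removed after the background fit (0.0742) and the replicate number as a block (0.0968). The adjusted p went up to 0.175. Those with the lowest p among the rest were Wars1 (-0.12), the aromatic decarboxylase Ddc (-0.29) and the methyltransferase Inmt (0.15).

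The other aminotransferases able to act on kynurenine did not pass in any of 3 cases, Kyat1 at -0.19, Kyat3 at -0.13 and Got2 at 0.10. Nor did any of the 5 genes of the oxidation route beyond Acmsd, with Dhtkd1 at -0.23 (adjusted p = 0.083), the semialdehyde dehydrogenase Aldh8a1 at -0.23 and the glutaryl-CoA dehydrogenase Gcdh at -0.09.

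In NAD metabolism, 2 of 6 tested genes fell, where 3.07% of all genes did. Nnmt, which methylates nicotinamide and so removes the precursor of the salvage route, read 4.28, 3.85, 4.49, 4.26 and 3.28 from WT 1 to WT 5, and -2.22, -2.76, -2.25, -2.64 and -1.24 from KO 1 to KO 5. The groups lay far apart, and Nnmt passed under all 24 alternatives. Nmnat3, an adenylyltransferase that completes NAD, read 0.93, 1.14, 1.28, 0.93 and 1.57 from WT 1 to WT 5, and 0.53, 0.63, 0.52, 0.28 and 0.23 from KO 1 to KO 5, again without overlap. Over all genes, 3.08% had every KO liver below every WT liver. Nmnat3 fell by 0.73 (SE 0.13, adjusted p = 0.00959), but not without both male KO livers (-0.63, adjusted p = 0.101), with median centring (-0.60, 0.0758) or with the replicate number as a block (-0.79, 0.0504). Nampt, the salvage enzyme that recycles nicotinamide, was at 0.70 (SE 0.19, adjusted p = 0.0516) with 0.62 at its other probe, Naprt at -0.19 (adjusted p = 0.14) and Nadsyn1 at -0.15.

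Of 7 transporters tested, 2 fell, where 3.07% of all genes did. Slc43a1, a carrier of large neutral amino acids, read 1.14, 0.80, 1.83, 1.24 and 1.38 from WT 1 to WT 5, and -0.36, -0.02, -0.29, -0.38 and -0.28 from KO 1 to KO 5, where it was well above background in 4 of 5. It passed under all 23 alternatives that gave a value. Slc16a10, a carrier of aromatic amino acids, went from 2.46 ± 0.39 to 1.99 ± 0.41 (SD, n = 5 each). It fell by 0.59 (SE 0.15, adjusted p = 0.0468), with -0.39 and 0.05 at its other probes, and the call was lost in 7 of the 10 fits that leave out 1 liver (KO 1 or 3, or any WT liver; adjusted p up to 0.151). Slc43a2 was at 0.24 (adjusted p = 0.0735), Slc7a8 at 0.18 and Slc3a2 at 0.06. Slc7a8 had no value in KO 2 and was fitted without it.

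Kynurenine and its products can activate the aryl hydrocarbon receptor. Of the 7 tested genes of that receptor and its targets none passed for genotype, where 5.97% of all genes did. Ahr itself was at -0.36 (adjusted p = 0.109), its target Tiparp at 0.42 (adjusted p = 0.0931) and its partner Arnt at 0.22. The other Arnt probes lay between -0.04 and 0.11. The target Cyp1a2 was at -0.13 at its brighter probe and at -0.60 at its other probe. Of the 4 genes reported here that supply the cofactors heme, pyridoxal phosphate and FAD, none passed. Pdxk, the kinase of vitamin B6, was at -0.25 (adjusted p = 0.0516), and its other probes at -0.46 and -0.24. The flavokinase Rfk was at 0.18, and its other probes at -0.02 and 0.08. Alas1, an enzyme of heme synthesis, was at 0.09, with the widest spread of the list (1.49 to 4.54 in WT livers).

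**Figure D5:**
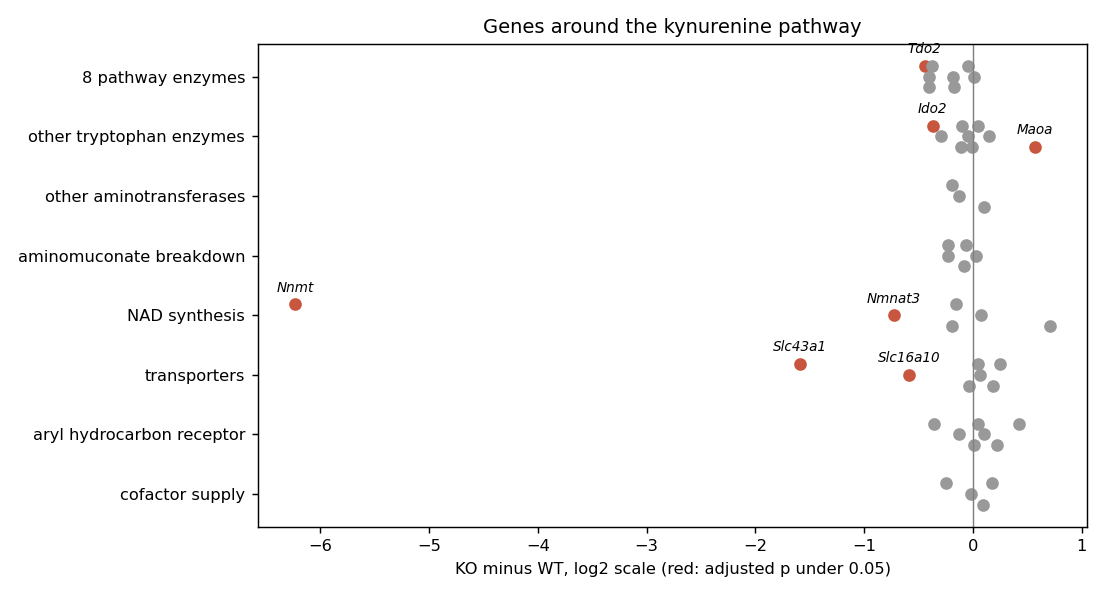
KO minus WT on the log2 scale (x axis) for the 8 enzymes and the 41 other tested genes by list (y axis), 1 point per gene, in red where the adjusted p is under 0.05. Nnmt at -6.23 and Slc43a1 at -1.59 lie outside the range of the enzymes themselves, -0.45 to 0.005.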

How the data were processed

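Per the labels, total RNA of each liver was labelled with Cy5 and hybridised with a Cy3 reference on every array, without dye swaps. Feature Extraction is named as version 10.7 in the submitters' processing notes, and the file headers record 10.7.3.1. The deposited mean and background signals are linear intensity values and the deposited LogRatio is a log10 of processed Cy5 over Cy3, both per the file headers. The table of values by the authors holds log2 ratios, as setting its columns (medians 0.00776 to 0.023) against each array showed (correlation 0.9994 to 0.9996). Its normalisation was not given in the sources used here.

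Outlier spots (169 to 291 of 45018 per array) were left out. Signals were corrected with normexp (offset 50) and loess-normalised within arrays. A Cy5 signal well above background was required on 4 or more arrays, which kept 26933 of 41174 probes, with the probe of highest mean Cy5 representing a gene. RefSeq's GRCm38.p6 table named 22951 probes through an accession, 6659 through a symbol, 3109 through a synonym and 45 through the description, and 8410 kept the file's name. Fits used limma 3.58.1 in R 4.3.3 (Benjamini-Hochberg over all genes, threshold 0.05) and were tested on simulated data. The simulated differences were larger than those of the enzymes in the main fit, and no slide effect was simulated. That test therefore does not show how the fits do at the sizes reported here. The series describes separate mice, so each liver was 1 replicate, and 5 per group limit the precision. All members, every listed gene that passed and up to 3 others per list were named, and Cyp1a2 was added for its other probe. One gene of the cofactor list, left out of its counts, and 1 promoter window are not reported here. Members and lists were chosen with earlier results of these data known. Same-numbered WT and KO livers were not treated as pairs.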

Additional observations from a re-analysis of the deposited data

Results flagged for a closer look

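The Kmo value of WT 4, a female, was 3.29, far from the 4.18 to 4.34 of the other 4 WT livers, by Dixon's test on each probe's values within a genotype. Of 20 groups tested 1 was flagged, and chance flags about 1 in 20 groups.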

How the results depend on the processing

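Of the 24 alternatives with a test, Tdo2 passed for genotype in 17, Afmid in 6, Kynu in 4 and Haao in 3, and Acmsd in 1 of 23 (the scanner's log ratio, -0.66). Tdo2, Afmid, Kynu, Haao and Acmsd stayed below 0 in all of these, Tdo2 from -0.79 to -0.14, while Kmo changed sign in 6, Qprt in 7 and Aadat in 1 without passing. The only called value that turned was Tdo2 on slide 3 (0.28), where the KO liver is male and the WT livers are female. For sex, Tdo2 and Aadat each passed in 20 of 23.

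For genotype, 1128 genes and 1 enzyme passed. With outlier spots removed after the background fit these were 341 and 0, with median centring 281 and 0, without the sex term 620 and 0, and the cause was not tested. Enzymes called were 2 with the scanner's log ratio (1322 genes), with probes above background on all 10 arrays (1179), with the mean of probes (1128) and with every probe on its own. They were 3 with Cy5 alone (1191 genes) or slide as a fixed block (1207), and 4 with slide as a random block (1563). Leaving out 1 liver gave 594 to 1183 genes (594 without WT 3, 600 without KO 1, 669 without KO 4) and 0 to 3 enzymes. Median centring made 72.2% of calls higher and outlier removal after the fit 58.9%, against 48.5%; the median of all genes was then 0.07 and 0.01.

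For sex, 2192 genes and 2 enzymes passed. These were 790 and 0 with late outlier removal, 923 genes with median centring, 1436 and 1 without both male KO livers, 1 enzyme with the scanner's log ratio, and 1555 to 2513 genes and 2 to 3 enzymes without 1 liver. The contrast of the sexes gave 6 genes, 1 with the scanner's log ratio or late outlier removal, 14 with Cy5 alone, 11 with the fixed slide block and 2 to 115 without 1 liver, and 0 enzymes throughout.

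With the replicate number as a block, the pairing left 305 genes and 0 enzymes for genotype, 156 and 0 for sex and 18 for the contrast, with Tdo2 at -0.45 (adjusted p = 0.106). Deviations of same-numbered livers correlated from -0.43 to 0.54, and not every liver correlated best with its own number, so the numbers were not taken to pair livers. Every probe on its own and leaving out both male KO livers were chosen after seeing the data. Acmsd and the Kynu reference channel lie near background, which limits their values.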
